A study of Mus musculus with 6 samples.

Results

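The genes described here, grouped as sperm phosphatase and calmodulin genes, encode subunits or regulators of serine/threonine phosphatases, or calmodulin. They are the 8 genes Ppp1cc, Ppp1r2, Ppp1r7, Ppp1r11, Ppp3cc, Ppp3r2, Calm2 and Calm3, chosen by symbol, out of 6985 genes with a symbol in the tables. Reads were found on 14 annotated transcripts (contigs) of these genes, of 11517 annotated contigs in all. Direct RNA sequencing passes native polyadenylated molecules through a nanopore from the 3′ end, so that each read gives the poly(A) tail of 1 molecule. P/D spermatocytes (a testis sort enriched for, but not limited to, pachytene and diplotene cells) and round spermatids (RS) were compared, with 3 samples of each. By the paper's microscopy the P/D sort was less pure than the RS sort, and values given for P/D spermatocytes are those of the whole sort. All came from wild-type adult C57BL/6J/B6 male mice, and each sample pooled the mRNA of 3 mice. Barcoded P/D samples were sequenced as 1 library and barcoded RS samples as another, which means that cell type and library cannot be told apart.

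Protein phosphatase 1 (PP1) pairs a catalytic subunit with regulatory subunits that direct or restrain it. The testis makes a splice form of the PP1 gamma catalytic subunit, PP1 gamma-2, that is retained in sperm and whose activity is held low when sperm swim. Calcineurin is the phosphatase that calcium and calmodulin switch on, and male germ cells use a catalytic and a regulatory subunit of their own for it. Calmodulin, the calcium sensor, has the same amino acid sequence whichever of its genes encodes it.

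The samples held between 244004 and 474688 reads, of which 0.527% to 0.873% belonged to the 8 genes, 13235 reads in total. The median tail of all reads was 91.2 to 94.1 nt across P/D against 156 to 160.2 nt across RS. The 10 genes listed as markers of round spermatids took 0.0365% to 0.0494% of the P/D reads and 0.287% to 0.305% of the RS reads, and all 10 rose. Markers of pachytene and diplotene spermatocytes, 10 genes, took 0.40% to 0.432% and 0.247% to 0.273%, respectively, and 7 of them fell and 1 rose. The 10 genes listed as markers of elongating spermatids went from between 0.193% and 0.26% to between 2.44% and 2.94% of the reads. All 10 were higher in RS. Per the paper, several of them, such as Odf1 and Smcp, are already transcribed in RS, so their reads do not mark elongating cells alone. The part of elongating cells or of carried-over spermatocytes in the values below was not tested. Of the Sertoli cell list, 1 of 6 genes was measured, with 0 to 1 reads in a sample. Of the Leydig cell list, 1 of 5 was measured, with 1 to 7 reads. Of the lists for earlier spermatocytes, spermatogonia and blood, 0 genes were among those analysed here.

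The annotated 3′ ends are shown first, because a tail is added there and because several of these genes differ between isoforms in where they end. Each sequence is a stretch of the 3′ UTR as annotated by GENCODE on GRCm38, on the strand of the gene, and the capitals mark the polyadenylation signal, AATAAA or its variant ATTAAA, found in the last 50 nt. Only the transcript strand was searched, AATAAA first, and ATTAAA was counted where AATAAA was missing. The 3 Ppp1cc contigs share 1 annotated end, the 2 Ppp1r2 contigs have separate annotated ends, and Calm2 and Calm3 both carry AATAAA. Any link between the signal and the tail or level of a gene was not tested.
Ppp1cc-201: ggtttcagacttATTAAAtgcaagcttgtt
Ppp1r2-201: ccaagtattgagATTAAAgatgtgggccac
Ppp1r2-202: ctcacacatggtATTAAAactgaaaggaaa
Ppp3r2-201: gctttctattatATTAAAttcatctcattt
Calm2-201: tatttgttttccAATAAAaaaaattacaat
Calm3-201: tcaatgttttccAATAAAatacagtgacta

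These windows lie at chr5:122175238-122175267 on the forward strand for Ppp1cc and, on the reverse strand, at chr16:31251552-31251581 and chr16:31257975-31258004 for the Ppp1r2 contigs, chr4:49678760-49678789 for Ppp3r2, chr17:87433420-87433449 for Calm2 and chr7:16915381-16915410 for Calm3. Ppp1r7-201 and Ppp1r11-201, not printed, also hold AATAAA. The letters of neither signal were found in the last 50 nt of the Ppp3cc contigs or of Ppp1r11-202 and Ppp1r11-203. Over 6901 contigs tested for tails and matched to the annotation, 63.2% held AATAAA, 14.3% held ATTAAA without AATAAA and 22.5% held neither.

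Tails were longer in RS for 7 of the 8 genes and shorter for 0 (limma on the mean tail of each sample, adjusted p below 0.05). Of all 5249 genes tested, 55% were longer and 2.08% shorter in RS, so that lengthening was the common state. All 8 genes had at least 20 reads in every sample, and 1832 genes did. The median difference between RS and P/D spermatocytes was 52.8 nt over the 8 genes, 35.0 nt over all genes tested and 48.6 nt over those 1832 genes. The 55% also covers genes with fewer reads, and the share called among those 1832 genes is not given. Calm2 was the gene whose tails did not pass the test.

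**Figure D1:**
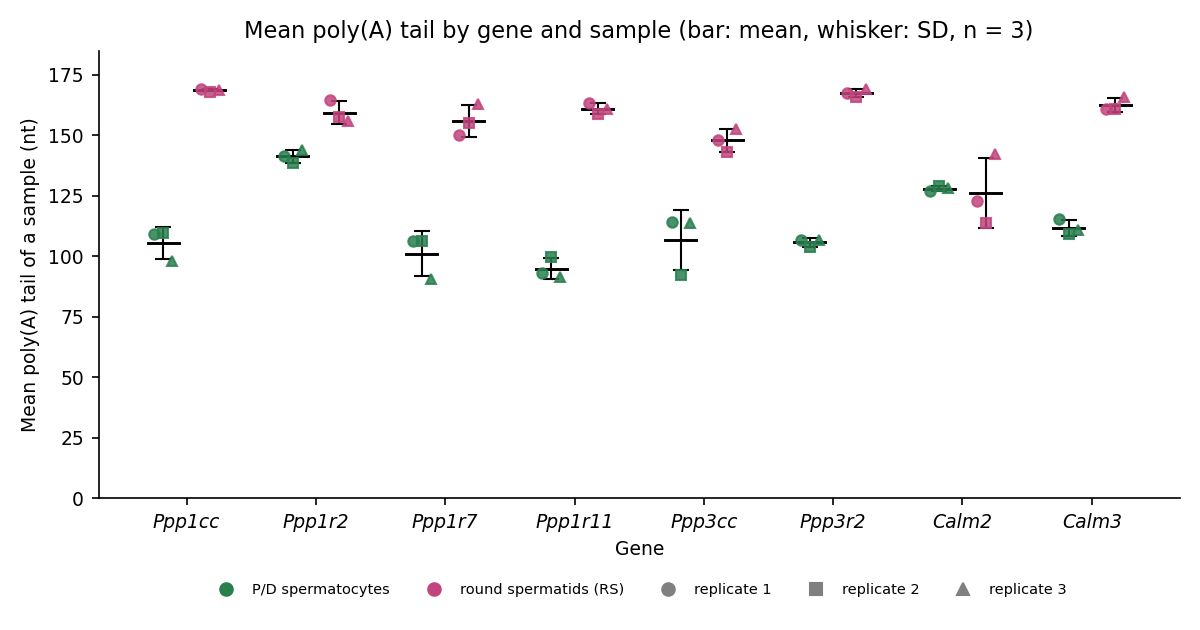
Mean poly(A) tail in nt of each gene (x axis) in each P/D (green) and RS (pink) sample, with the mean as a bar and the SD over 3 samples as a whisker. In 7 genes every RS sample lies above every P/D sample, while the Calm2 values overlap, 127 to 129 nt in P/D and 114 to 142 nt in RS. Among the 4975 genes with a mean in all samples, 62.3% had every RS sample above every P/D sample.

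Ppp1cc encodes the PP1 gamma catalytic subunit, and its reads were assigned almost entirely to the transcript with the longer coding sequence. Ppp1cc-201 (ENSMUST00000086294, chr5:122158356-122175273, forward strand, 8 exons) has a coding sequence of 337 codons, the gamma-2 form, and a 3′ UTR of 226 nt. The 3′ UTR lengths given here and below include the stop codon, which the codon counts leave out. Ppp1cc-202 (ENSMUST00000102528) keeps the sequence that the gamma-2 splice removes, has 323 codons and a 3′ UTR of 1132 nt, and ends at the same base. Ppp1cc-204 (ENSMUST00000132555) is annotated as a target of nonsense-mediated decay. Ppp1cc-201 took 98.5% ± 0.554 of the gene's reads in P/D spermatocytes against 98.7% ± 0.385 in RS (SD, n = 3 each), shares that overlapped between the groups. The Ppp1cc contigs end at the same base, so a read that stops near it could fit more than 1 of them. Reads that reach the gamma-2 splice were not counted. Ppp1cc-202 had 3, 2 and 5 reads across P/D against 2, 3 and 1 across RS, and Ppp1cc-204 had 1 to 4 reads in a sample. Neither of these 2 contigs had enough reads for a test of its tail or level.

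The mean tail of Ppp1cc was 109, 110 and 97.9 nt across P/D replicates 1 to 3 against 169, 168 and 169 nt across RS replicates 1 to 3. The groups were far apart, and the RS samples differed from each other by less than 1 nt. The difference was 63.2 nt (SE 5.42, 95% confidence interval 49.9 to 76.4, limma adjusted p = 0.00028). Tails of 120 to 210 nt, called the 150-nt class here, took 30.2% ± 4.07 of the P/D reads and 76.3% ± 3.45 of the RS reads. Tails of 30 to 120 nt, the 60-nt class, took 64.5% and 11.2% of the reads. Tails under 30 nt, 1.08% of the P/D reads, were seen in 0 of 1109 RS reads.

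The level of Ppp1cc changed little compared with its tail. The counts were 333, 353 and 330 reads across P/D against 353, 445 and 311 across RS, or 1277 ± 125 and 1075 ± 131 CPM (reads scaled to the library total with TMM factors). The CPM of the groups overlapped. The log2 fold change was -0.25 (SE 0.10, edgeR adjusted p = 0.0331), a call that was lost with DESeq2 (adjusted p = 0.116) and without P/D replicate 1, RS replicate 2 or RS replicate 3 (edgeR adjusted p = 0.145, 0.0864 and 0.162). Among all genes tested by edgeR, 34.9% were higher and 31.3% lower in RS. As these are bulk samples scaled to their own totals, fewer cells of a type and less RNA per cell cannot be told apart. With Ppp1cb, the other PP1 catalytic gene measured, Ppp1cc made up 97.0% ± 0.717 of the reads in P/D spermatocytes against 99.0% ± 0.371 in RS. Ppp1cb had 8 to 13 reads in a P/D sample and 2 to 5 in an RS sample. No contig carried the symbol Ppp1ca in the deposited data, so the share leaves it out.

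The 3 inhibitors and regulators of PP1 did not move with the catalytic subunit to the same extent. Ppp1r2 (inhibitor-2) and Ppp1r7 (the Sds22 protein, a leucine-rich repeat partner of PP1) rose in level in RS, and Ppp1r11 (inhibitor-3) was not called either way. For each Ppp1cc read there were 0.309 ± 0.0259 Ppp1r2 reads in P/D spermatocytes against 0.673 ± 0.152 in RS. The same ratio was 0.0785 ± 0.011 and 0.146 ± 0.0406 for Ppp1r7, and 0.79 ± 0.0453 and 0.983 ± 0.0423 for Ppp1r11. In each of these 3 pairs all RS samples were above all P/D samples (two-sided exact permutation test at p = 0.1, the lowest value that 3 samples against 3 allow, and 0.1 after adjustment over the 5 pairs of genes compared). The pairs were chosen after their values were seen, so their separation is a description. How often other pairs of genes separate was not counted. A read counts 1 molecule whatever its length, and the ratios are used here for the change between cell types.

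**Figure D2:**
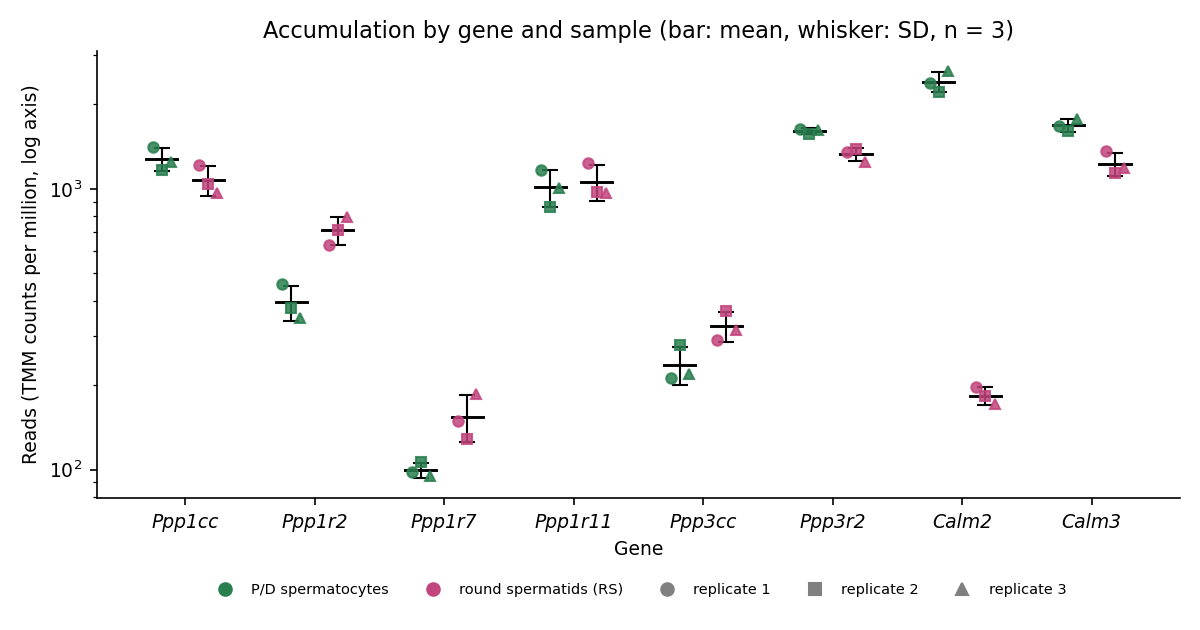
Reads of each gene (x axis) in TMM-scaled CPM on a log axis, in each P/D (green) and RS (pink) sample, with the mean as a bar and the SD over 3 samples as a whisker. Calm2 goes from 2407 to 183 CPM, while the other 7 genes change by at most 1.81-fold.

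Ppp1r2 had longer tails in P/D spermatocytes than Ppp1cc, Ppp1r7 and Ppp1r11, in every sample. Its counts were 108, 114 and 92 reads across P/D against 182, 304 and 255 across RS. In CPM it went from 395 ± 57.3 in P/D to 711 ± 81.2 in RS, with a log2 fold change of 0.86 (SE 0.13, edgeR adjusted p = 2.9e-07). The mean tail was 141, 139 and 144 nt across P/D, longer than in 94.2% of the 1832 genes read at least 20 times in each sample, and 165, 158 and 156 nt across RS, longer than in 54.7%. The groups did not overlap, which was so, in the same direction, for 62.3% of the 4975 genes with a mean in all samples. Ppp1r2 minus Ppp1cc was 32.2, 28.9 and 46.2 nt across P/D against -4.23, -10.4 and -13.1 nt across RS (two-sided exact permutation test, p = 0.1, and 0.167 after adjustment over 5 pairs). The same permutation test gave p = 0.2 for Ppp1r7 minus Ppp1cc and p = 0.4 for Ppp1r11 minus Ppp1cc (0.25 and 0.4 after adjustment). These pairs were chosen after their values were seen. For the tail of Ppp1r2 itself the difference between cell types was 18.1 nt (SE 5.12, limma adjusted p = 0.0238). That call was lost with the replicate number as a block (adjusted p = 0.0685) and without P/D replicate 2, RS replicate 1 or RS replicate 2 (limma adjusted p = 0.0504, 0.0824 and 0.0534).

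The single tails of Ppp1r2 were less spread in RS. The SD over reads within a sample averaged 67.7 nt in P/D spermatocytes against 47.9 nt in RS. The 150-nt class went from 45.2% ± 0.549 to 71.8% ± 3.55 of its reads (limma adjusted p = 0.0016), and the 60-nt class from 37.8% ± 1.81 to 15.3% ± 1.08. Tails of 210 nt or more took 15.1% ± 2.13 and 12.4% ± 3.04 of the reads. Ppp1r2 was thus the gene of the 8 with the smallest lengthening among those called, with a loss of short tails and no gain of very long ones in the means.

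The 2 Ppp1r2 contigs end 6438 nt apart. Ppp1r2-201 (ENSMUST00000060188, chr16:31251537-31275277, reverse strand, 6 exons) has a 3′ UTR of 3153 nt, and Ppp1r2-202 (ENSMUST00000115233, chr16:31257975-31274992) one of 351 nt. The short form had 7, 13 and 8 reads across P/D, or 6.48%, 11.4% and 8.7% of the gene (95% Wilson intervals 3.17% to 12.8%, 6.79% to 18.5% and 4.47% to 16.2%). In the RS samples it had 0, 5 and 6 reads, or 0%, 1.64% and 2.35% (95% Wilson intervals 0% to 2.07%, 0.705% to 3.79% and 1.08% to 5.04%). By the limit of 3 counts that is used for a count of 0, the 0 of 182 reads allows a share of up to 1.65%. Every RS share was below every P/D share, while some intervals of the cell types overlap (two-sided exact permutation test at p = 0.1, the lowest value possible here). Its reads were too few for the test of isoform usage. Pooled over samples, its mean tail was 121 nt over 28 P/D reads and 131 nt over 11 RS reads, against 143 and 159 nt for Ppp1r2-201. Such intervals cover counting error only.

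Several copies of Ppp1r2 elsewhere in the genome carry a similar sequence, so reads may be split among them. Ppp1r2-ps1 had 0 reads in each P/D sample and 16, 34 and 24 across RS, with mean tails of 178, 181 and 178 nt in RS. Ppp1r2-ps3 had 0, 1 and 0 reads and then 10, 12 and 23. Ppp1r2-ps6 had 4, 1 and 1 and then 20, 44 and 36. All 3 copies were thus read mostly in RS, where Ppp1r2 itself was also higher.

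Ppp1r7-201 (ENSMUST00000027494, chr1:93342854-93373489, forward strand, 10 exons) was the only contig of its gene with reads and the least read of the 8 genes. It had 23, 32 and 25 reads across P/D against 43, 55 and 60 across RS, or 99.4 ± 5.93 and 154 ± 29.2 CPM. The log2 fold change was 0.61 (SE 0.22, edgeR adjusted p = 0.0131). The call was lost with DESeq2 (adjusted p = 0.0629) and without RS replicate 3 (edgeR adjusted p = 0.105). The mean tail was 106, 106 and 90.5 nt across P/D against 150, 155 and 163 nt across RS, a difference of 54.9 nt (SE 6.88, limma adjusted p = 0.000876). Its 150-nt class went from 31.3% ± 10.9 to 77.6% ± 7.63 of the reads. Each P/D mean rests on 23 to 32 reads.

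Ppp1r11 showed the largest lengthening of the 8 genes. Its tails were also the least spread in RS, with an SD over reads of 36.0 nt, next to 36.6 nt for Calm3. The mean tail was 93, 99.8 and 91.6 nt across P/D against 164, 159 and 161 nt across RS, which did not overlap. The difference was 66.3 nt (95% confidence interval 54.1 to 78.5, limma adjusted p = 0.000244), larger than in 85.9% of all 5249 genes. The 150-nt class held 26.3% ± 2.46 of the P/D reads and 86.0% ± 0.671 of the RS reads, and a single 15-nt bin, 150 to 165 nt, held 27.6% of the pooled RS reads. Its counts were 275, 261 and 266 reads across P/D against 358, 416 and 311 across RS, 1013 ± 152 against 1059 ± 155 CPM. The log2 fold change was 0.064 (SE 0.11, edgeR adjusted p = 0.628), and its sign turned with other settings.

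Isoform usage could be tested for 2 contigs of the 8 genes, both of Ppp1r11, so the other genes are not compared with it in this. Ppp1r11-201 (ENSMUST00000040402, chr17:36948356-36951713, reverse strand, 3 exons) has a 3′ UTR of 999 nt, and Ppp1r11-203 (ENSMUST00000174711, chr17:36949290-36951741) ends 934 nt upstream with a 3′ UTR of 65 nt and the same number of codons, 131. Ppp1r11-203 had 2, 5 and 4 reads across P/D against 12, 25 and 13 across RS. Its share of the gene was 0.727%, 1.92% and 1.5% in P/D spermatocytes against 3.35%, 6.01% and 4.18% in RS, so that every RS share was higher. It passed the filters on reads through its RS samples alone, so a higher level there was a condition of its entry, and its fitted values are given as a description. Its usage relative to the gene differed by 1.73 on the log2 scale (edgeR's diffSpliceDGE, adjusted p = 0.00715), and of the 2404 contigs tested 5.32% were called higher and 1.75% lower in this way. The adjusted p was above 0.05 without P/D replicate 1, P/D replicate 3 or RS replicate 2 (0.102, 0.0541 and 0.094). Its mean tail was 91.8 nt across P/D, from only 2 to 5 reads in a sample, against 180 nt across RS. Ppp1r11-202, whose annotation stops at the end of its coding sequence, had 0 to 3 reads in a P/D sample and 3 to 7 in an RS sample. 1 read was listed on both Ppp1r11-201 and Ppp1r11-202.

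Calcineurin was represented by its germ cell catalytic subunit, Ppp3cc, and its germ cell regulatory subunit, Ppp3r2, whose changes were unequal. Ppp3cc-201 (ENSMUST00000078434, chr14:70217898-70289471, reverse strand, 14 exons) and Ppp3cc-203 (ENSMUST00000228911) end 33 nt apart. The first took 96.5% ± 1.58 of the gene's reads in P/D spermatocytes against 94.8% ± 2.48 in RS, with overlap. The counts of the gene were 50, 84 and 58 reads across P/D against 84, 157 and 101 across RS. In CPM it had 237 ± 36.2 in P/D against 324 ± 39.4 in RS, and the log2 fold change was 0.45 (SE 0.16, edgeR adjusted p = 0.0127). That call was lost with DESeq2 (adjusted p = 0.0619), with scaling to library size only (edgeR adjusted p = 0.0506), and without P/D replicate 1, P/D replicate 3 or RS replicate 2 (0.0814, 0.0689 and 0.0813).

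Among the 7 genes with called tails, Ppp3cc had the largest share of 60-nt class reads in RS, the other 6 having 7.58% to 16.7%. The mean tail was 114, 92.4 and 114 nt across P/D against 148, 143 and 153 nt across RS. The difference was 41.2 nt (SE 7.64, limma adjusted p = 0.0044). In RS, 30.7% ± 2.39 of its reads stayed in the 60-nt class and 59.0% ± 3.23 were in the 150-nt class, against 33.2% ± 9.51 in the 150-nt class in P/D spermatocytes. With the 150-nt class taken as 120 to 180 nt, the increase of 13.9 percentage points was not called (limma adjusted p = 0.0752).

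Ppp3r2 is the most read of the 8 genes over all samples and has a single contig with reads, Ppp3r2-201 (ENSMUST00000029991, chr4:49678747-49682024, reverse strand, 2 exons). It had 386, 473 and 427 reads across P/D against 390, 594 and 402 across RS, 1607 ± 36.7 and 1328 ± 72.8 CPM. The log2 fold change was -0.27 (SE 0.09, edgeR adjusted p = 0.00852). Without RS replicate 3 the adjusted p was 0.0542. The mean tail was 107, 104 and 107 nt across P/D against 167, 166 and 169 nt across RS. The difference was 61.7 nt (SE 4.56, 95% confidence interval 50.5 to 72.8, limma adjusted p = 0.000244), and the 150-nt class went from 30.3% ± 0.227 to 77.8% ± 1.54.

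Side by side in the same samples, the tails of Ppp3cc minus those of Ppp3r2 were 7.24, -11.4 and 7.16 nt across P/D against -19.4, -22.7 and -16.5 nt across RS. Ppp3cc thus had the shorter tails in every RS sample, and the differences did not overlap between cell types (two-sided exact permutation test, p = 0.1, and 0.167 after adjustment over 5 pairs). This pair, too, was chosen after its values were seen. There were 0.148 ± 0.0261 Ppp3cc reads for each Ppp3r2 read in P/D spermatocytes against 0.244 ± 0.0253 in RS. Of the reads of Ppp3cc and its somatic paralog Ppp3ca together, Ppp3cc took 61.9% ± 4.02 in P/D spermatocytes against 77.5% ± 2.78 in RS. Ppp3ca fell from 145 ± 20.1 to 92.9 ± 3.95 CPM (log2 fold change -0.65, SE 0.22, edgeR adjusted p = 0.00799). For Ppp3cb, too, no contig carried the symbol. Ppp3r1, the paralog of Ppp3r2, had 1 read in each P/D sample and 9, 9 and 13 reads across RS, so that Ppp3r2 took 99.8% ± 0.0237 and 97.7% ± 0.821 of the pair's reads.

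The genes most like Ppp3r2 over both measures, its level and mean tail in the 6 samples, were Cetn1, Elob and Cmtm2b, out of 392 genes with at least 100 reads in every sample. Their distances from it over 12 scaled values were 0.505, 0.704 and 0.71. Cetn1 had 1725 CPM and a mean tail of 106 nt in P/D spermatocytes against 1353 CPM and 163 nt in RS. This likeness is a description without a test.

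Calm2 and Calm3, which encode the same protein of 149 codons, parted in both measures. Calm2-201 (ENSMUST00000040440, chr17:87433412-87446935, reverse strand, 6 exons, 3′ UTR of 618 nt) had 560, 670 and 694 reads across P/D against 57, 78 and 55 across RS. Its level was 2407 ± 204 CPM in P/D against 183 ± 13.2 in RS. The log2 fold change was -3.71 (SE 0.12, edgeR adjusted p = 4.22e-26), 13.1-fold lower in RS, and 46 of the 4822 genes tested had a lower value. It lay between -3.79 and -3.67 without each sample in turn. Calm3-201 (ENSMUST00000019514, chr7:16915379-16924114, reverse strand, 6 exons, 3′ UTR of 1572 nt) had 394, 484 and 470 reads and then 393, 488 and 381. Its CPM went from 1685 ± 87.6 to 1227 ± 115, with a log2 fold change of -0.46 (SE 0.09, edgeR adjusted p = 5.12e-05). For each Calm3 read there were 1.43 ± 0.0464 Calm2 reads in P/D spermatocytes against 0.15 ± 0.00875 in RS.

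**Figure D3:**
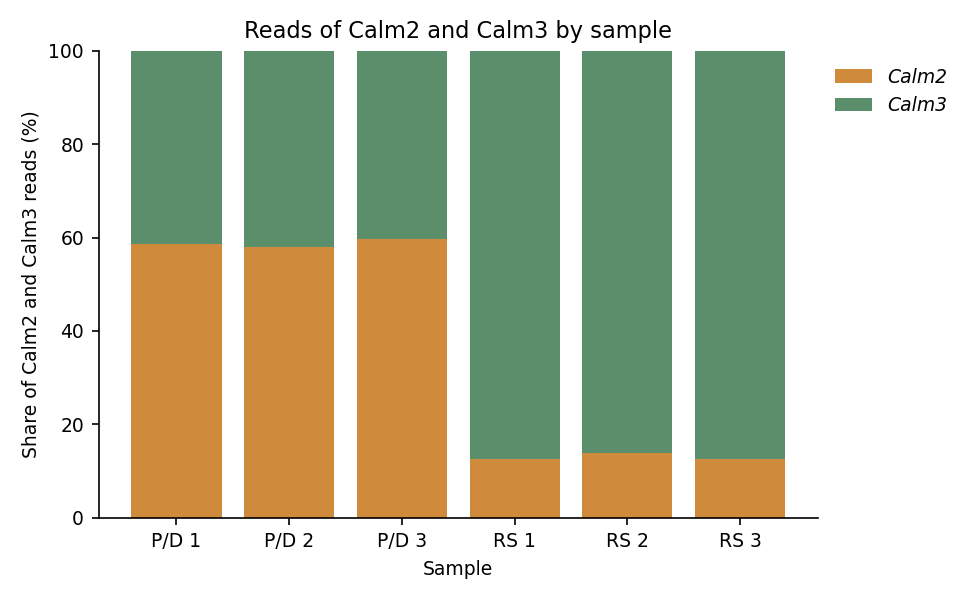
Share in percent (y axis) of Calm2 and Calm3 in the reads of both genes together (stacked, each sample adding up to 100%) in each P/D and RS sample (x axis). Calm2 takes 58.1% to 59.6% across P/D against 12.6% to 13.8% across RS.

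Of the reads of both genes together, Calm2 took 58.8% ± 0.786 in P/D spermatocytes against 13.0% ± 0.659 in RS (SD, n = 3 each). The more read gene of the pair was thus Calm2 in every P/D sample and Calm3 in every RS sample. Their summed level went from 4092 ± 292 to 1411 ± 126 CPM, 2.90-fold lower in RS.

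The tails of Calm2 and Calm3 were ordered one way in P/D spermatocytes against the other way in RS. The mean tail of Calm2 was 127, 129 and 128 nt across P/D against 123, 114 and 142 nt across RS, which overlap. The difference was -1.67 nt (SE 8.13, 95% confidence interval -21.5 to 18.2, limma adjusted p = 0.877), so a change in either direction within that interval could not be seen. The mean tail of Calm3 was 115, 109 and 111 nt across P/D against 161, 161 and 166 nt across RS. It rose by 50.7 nt (SE 4.87, 95% confidence interval 38.8 to 62.6, limma adjusted p = 0.000357). Calm2 minus Calm3 was 11.5, 19.8 and 17.4 nt across P/D against -37.8, -47 and -23.6 nt across RS (two-sided exact permutation test, p = 0.1, and 0.167 after adjustment over 5 pairs). Here also the pair was chosen after its values were seen.

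**Figure D4:**
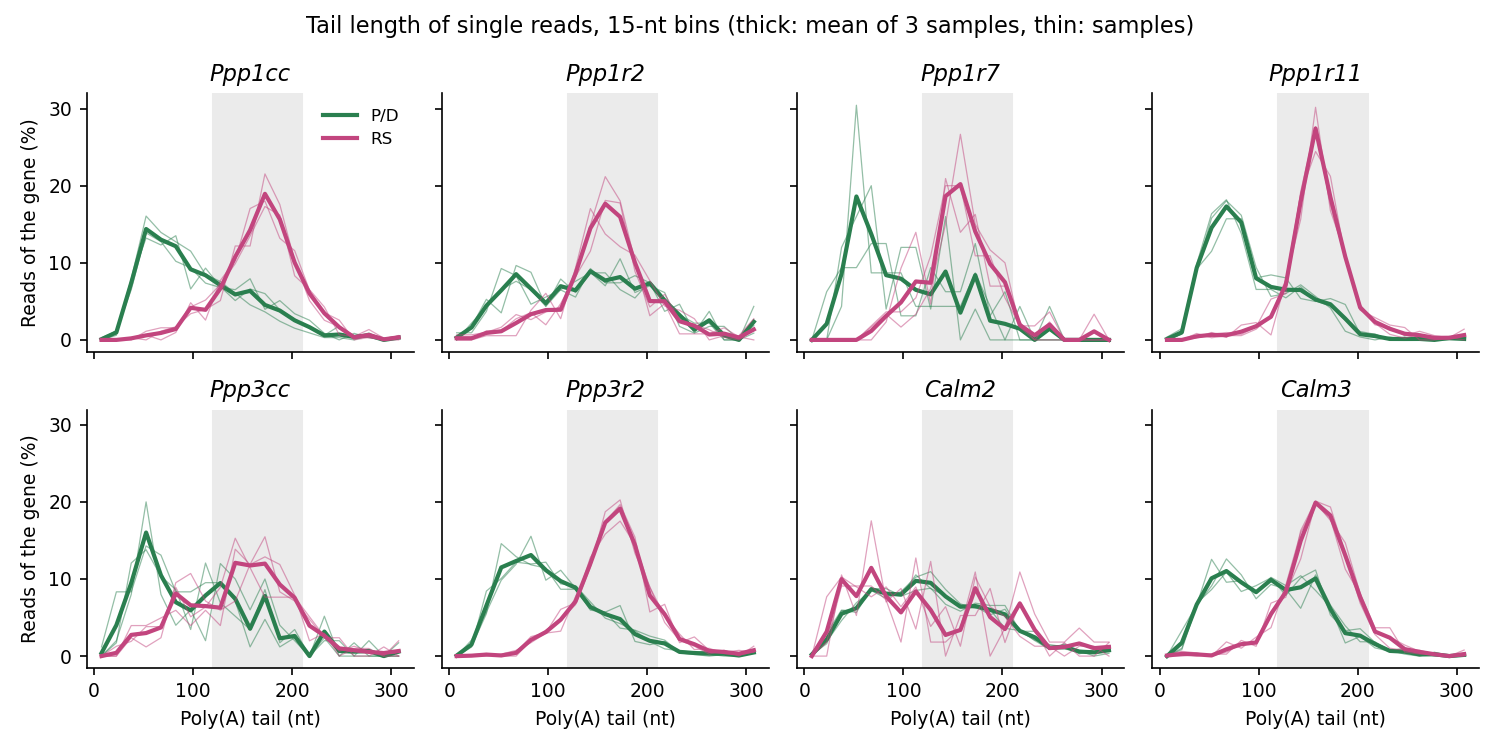
Percent of the reads of each gene (y axis) by poly(A) tail in nt (x axis) in 15-nt bins, with tails of 300 nt or more in the last bin, for P/D (green) and RS (pink), thick lines being the mean of 3 samples and thin lines the samples. The grey band is 120 to 210 nt. Ppp1r11 has the sharpest RS peak, and Calm2 shows no such peak in either cell type.

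The single tails of Calm2 were spread more widely than those of Calm3 in RS. The SD over reads within an RS sample averaged 74.8 nt for Calm2 and 36.6 nt for Calm3. The 150-nt class held 41.5% ± 0.60 of the Calm2 reads in P/D spermatocytes against 29.5% ± 6.65 in RS, a difference of -12 percentage points that was not called (95% confidence interval -23.4 to -0.657, limma adjusted p = 0.0673). For Calm3 it held 39.3% ± 1.85 and 82.2% ± 1.19 of the reads (limma adjusted p = 0.000269). The 60-nt class held 51.0% ± 1.79 of the Calm2 reads in RS and 9.94% ± 0.661 of the Calm3 reads. Tails of 210 nt or more took 14%, 7.69% and 27.3% of the Calm2 reads across RS, from 8, 6 and 15 reads. The share of the 150-nt class rose in the 7 other genes and fell in 0, against 55.8% and 2.67% of all 5249 genes tested.

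Genes with longer tails were found both higher and lower in level. Of the 7 genes with longer tails in RS, Ppp1r2, Ppp1r7 and Ppp3cc were higher in level, Ppp1cc, Ppp3r2 and Calm3 were lower, and Ppp1r11 was not called. Of the 4767 genes tested for both, 667 were longer and higher and 945 longer and lower in RS. By contig, 9 of the 14 passed the filter on reads, of which Ppp1r11-203 entered through RS alone and is not counted here. Of the other 8 contigs, 7 had longer tails and 0 shorter, against 54.2% and 1.69% of 6990 contigs. In level, 2 of the 8 were higher, against 32.6% of 6005 contigs, and 4 were lower, against 30.8%. The 5 contigs that were left out, each with 39 reads or fewer in all, remain without a test.

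**Figure D5:**
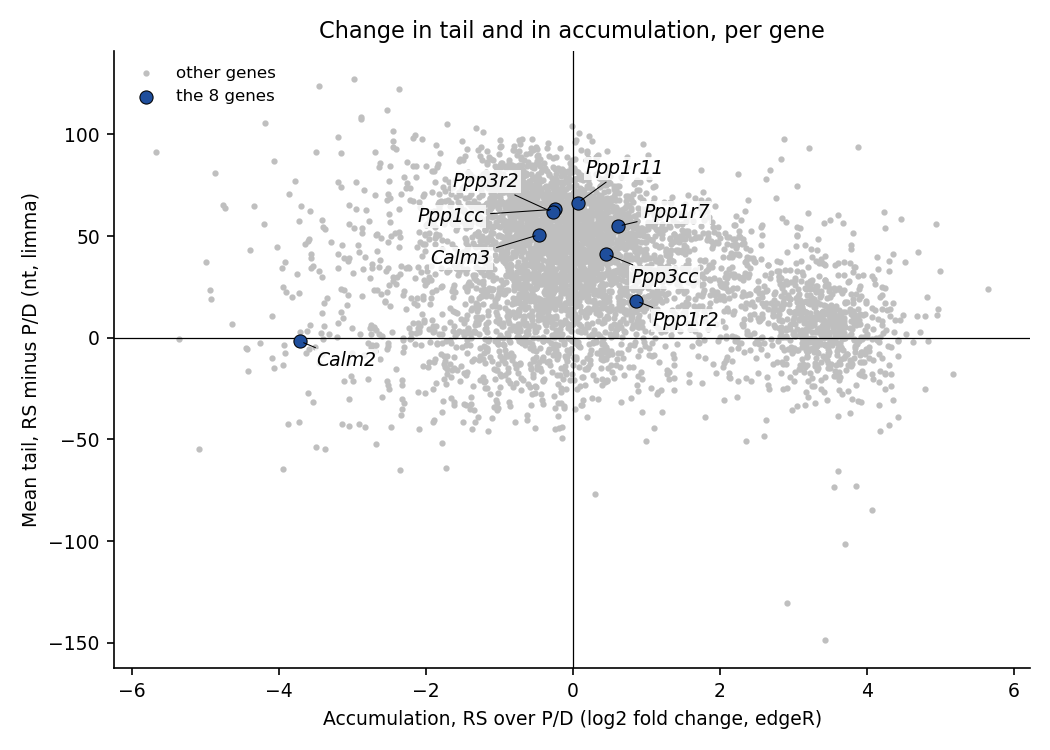
Difference in mean poly(A) tail, RS minus P/D in nt (y axis), against the log2 fold change in accumulation, RS over P/D (x axis), for 4767 genes (grey) and the 8 genes (blue). Of the 8, 7 lie between 18.1 and 66.3 nt and between -0.46 and 0.86 on the log2 scale, and Calm2 lies at -1.67 nt and -3.71.

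Other genes of the same pathways were counted from lists, whose counts stand beside the 34.9% higher and 31.3% lower in level and the 55% longer and 2.08% shorter in tail among all genes tested. Of 32 other PP1 catalytic and regulatory genes, 7 were tested for level, of which 4 were higher and 2 lower in RS, and 10 for tails, of which 4 were longer and 0 shorter. Ppp1r14b, an inhibitor of PP1 and myosin phosphatase, rose from 164 ± 26.2 to 267 ± 36.7 CPM and from 125 to 175 nt. Ppp1r42 rose from 105 ± 13.2 to 216 ± 34.1 CPM (edgeR adjusted p = 1.53e-05) with tails of 137 and 135 nt, a difference of -2.54 nt (SE 6.75, limma adjusted p = 0.775). Ppp1r36 rose from 179 ± 14.8 to 242 ± 28.4 CPM (edgeR adjusted p = 0.0221), and its tails of 163 and 183 nt were not called (limma adjusted p = 0.094).

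Of 9 other calcineurin genes, 2 were tested for both measures. Spata33, which links calcineurin to sperm mitochondria, had tails of 100 ± 4.38 nt in P/D spermatocytes against 164 ± 0.936 nt in RS (limma adjusted p = 0.00025), and a log2 fold change of -0.02 (SE 0.09, edgeR adjusted p = 0.869). Its tail difference of 63.8 nt was near the 61.7 nt of Ppp3r2. Of 22 other calmodulin-related genes, most of them for calmodulin-binding proteins, 6 were tested, of which 5 were higher and 1 lower in level (34.9% and 31.3% of all genes), and 2 longer and 0 shorter in tail (55% and 2.08%). Cabyr, a calcium-binding protein of the fibrous sheath, rose by 3.54 on the log2 scale (SE 0.22, edgeR adjusted p = 7.1e-17) with tails of 150 and 148 nt. Spa17, a sperm surface and sheath protein with a calmodulin-binding site, rose by 0.72 in level and by 64.7 nt in tail.

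Of 16 kinases, 14-3-3 proteins and other phosphatase catalytic subunits, 11 were tested, of which 2 were higher and 4 lower in level (34.9% and 31.3% of all genes), and 5 longer and 0 shorter in tail (55% and 2.08%). Ywhaq, a 14-3-3 protein, fell from 461 ± 30.7 to 277 ± 26.6 CPM (edgeR adjusted p = 1.86e-05), while its tails rose by 83.2 nt (SE 6.67). Ywhae, another 14-3-3 protein, had 378 and 371 CPM and tails of 120 and 126 nt, neither of them called. Csnk2b, the regulatory subunit of casein kinase 2, rose by 55.7 nt in tail and had a log2 fold change of 0.12 (SE 0.09, edgeR adjusted p = 0.245). No test of a list as a whole was made.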

How the data were processed

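The authors sequenced poly(A) RNA of sorted germ cells with the Oxford Nanopore direct RNA kit, aligned the reads to GENCODE transcripts of mm10 (GRCm38) with minimap2, and estimated tails with Nanopolish. They deposited raw read counts per contig, with no normalization, and a second table that lists every read with its contig, its sample and the other measurement, its tail in nt. The reads listed equalled the deposited counts for every contig and sample. The 8 genes, the gene lists and the tests were chosen with earlier results of these data known. Annotation came from GENCODE vM21 on GRCm38, which held all 14 contigs of the 8 genes.

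Mean tails per contig or gene and sample were tested with limma 3.58.1 (at least 10 reads in at least 2 samples of 1 cell type), as were shares of tails of 120 to 210 nt. Counts were tested with edgeR 4.0.16 (TMM, filterByExpr, quasi-likelihood) in R 4.3.3, DESeq2 1.42.0 being an alternative, and isoform usage with edgeR's diffSpliceDGE. Adjusted p-values are Benjamini-Hochberg values over all features tested, with a threshold of 0.05. Pairs of genes were chosen after their values were seen and compared by exact permutation tests over samples. Other genes were named by rule, as paralogs or as the genes with most reads of each list, at most 3, the Ppp1r2 copies being named after their values were seen. A listed gene is not reported here. Alternatives were other filters, scales, summaries, normalization, a replicate block and leaving out each sample. Tests were checked on simulated data.

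Samples were grouped by the labelled cell type. Both cell types carry numbers 1 to 3. Per the study's reporting summary the cell types came from the same mice, but no source used here says that a number marks a pool. Over 1827 contigs, same-numbered samples deviated from their group means with correlations of 0.0282, 0.237 and 0.0692 for level and -0.0106, 0.0772 and 0.0157 for tails. Samples with different numbers had correlations from -0.167 to 0.118 for level and from -0.0816 to 0.0633 for tails. The fits were left without the block. The p-values measure the spread between pools sequenced in 1 library for each cell type.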

Additional observations from a re-analysis of the deposited data

How the results depend on the processing

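Of the calls over the 8 genes, the tail calls of 6 genes and the level calls of Calm2, Calm3 and Ppp1r2 were kept under every alternative run. The number of genes called higher in RS was 1 with DESeq2 against 3. With at least 10 counts in every sample, 2 contigs were called lower against 4. Leaving out each sample in turn, the genes called lower numbered 2 to 4, the contigs called lower 2 to 4, and the contigs with changed isoform usage 0 to 1. The only contig called for usage, of Ppp1r11, had passed the filters on reads through its RS samples alone. A higher level there was a condition of its entry, so the count for usage is a description and not a check of a finding. Never called, and of either sign when each sample was left out in turn, were the tail difference of Calm2 (-9.62 to 4.56 nt, above 0 without RS replicate 1 or 2), the log2 fold change of Ppp1r11 (-0.061 to 0.157, below 0 without P/D replicate 2 or RS replicate 1) and that of Ppp1r11-201 (-0.164 to 0.059, above 0 without RS replicate 2 or 3). With scaling to library size only the log2 fold change of Ppp1r11 was -0.032. That of Ppp1r11-201 was 0.13 where every sample had to hold 10 counts. When the replicate number was entered as a block, the tail difference of Ppp1r2 stayed at 18.1 nt but was no longer called (limma adjusted p = 0.0685), nor was that of Ppp1r2-201 (0.115), whose call was also lost with the median, on a log2 scale and without each sample in turn, while Ppp3cc-201 became higher in RS (log2 fold change 0.36, edgeR adjusted p = 0.0462). The block changed no other call of these genes or contigs. The cause was not tested.

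No contig of the 8 genes had 5 reads in every sample beside its main isoform, so the tail difference between isoforms was not tested for them. Without RS replicate 1, Ppp1r2-202 could be tested and was not called. Ppp1r7, Ppp3cc and the RS reads of Calm2 rest on the fewest reads.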
